A study of Mus musculus with 8 samples.

Results

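Digestive enzymes and zymogen genes of the acinar cell were followed in islets of mice on a high fat diet (HF) and of mice on normal chow (NC). The list held 39 genes, and its members were every probe set of the array annotated to exactly 1 of them. Of the 39 genes, 32 had at least 1 such probe set, out of 18194 genes with a probe set of their own on the array. The 32 genes were covered by 50 probe sets, and 45 of these, from 30 genes, lay above the filter on low values and were tested. All probe sets of Aqp8 and Serpinb1b lay under that filter. Prss1, Try4, Try5, Cela3a and Amy2a5 were read only by probe sets shared with other genes, and Pnlip and Try10 had none.

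All mice were male C57BL/6J, a strain that carries a naturally occurring deletion in Nnt, and both groups therefore lacked the intact gene. From 4 weeks of age they received HF with 45% of its calories from fat or NC, a regular rodent chow, for 12 weeks by the sample labels, while the methods of the study give a longer time. The 4 HF samples (replicates 21, 22, 23 and 24) and the 4 NC samples (replicates 1, 2, 4 and 5) were each the pooled islets of 2 mice, so that n counts pools. The islets were freed with collagenase and separated on a Ficoll gradient, and each RNA sample was hybridised to 1 array.

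Acinar cells make up most of the pancreas and surround the islets. They package proteases, lipases, amylase and ribonuclease in zymogen granules, most of the proteases and phospholipase A2 as inactive precursors, and release them into the ducts when cholecystokinin or acetylcholine reaches the cell. In the gut enteropeptidase turns trypsinogen into trypsin, which activates the other precursors, and within the pancreas inhibitors such as Spink1 restrain trypsin. Isolated islets usually carry some acinar tissue, and acinar RNA is so rich in a few enzyme transcripts that a little of it is seen clearly.

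Values are GCRMA intensities, background-adjusted and normalized across arrays, on a linear scale, and changes are differences of mean log2 intensity, HF minus NC. Precision is set by the number of arrays. The islet hormones were present on every array. Ins2 lay between 71683 and 74310 in HF islets, against 67032 to 68077 in NC islets, and Gcg between 82143 and 88297 in HF islets, against 82128 to 85141 in NC islets. The log2 ratio of 3′ to 5′ control probe sets, a sign of RNA integrity, was 1.07 to 1.35 in HF islets and 1.22 to 1.28 in NC islets for Actb, and the lowest, 1.07, was that of HF replicate 23. For Gapdh it was 0.12 to 0.25 in HF islets and 0.14 to 0.27 in NC islets. There HF replicate 23 had 0.19, and the lowest, 0.12, was that of HF replicate 22.

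A single member gene passed the test. Pla2g1b, the secreted phospholipase A2 of pancreatic juice, was lower in HF islets, and no member was higher. Of the 45 tested member probe sets, 2 passed as lower at a limma adjusted p under 0.05 and a fold of at least 1.5 (4.44%), where 3.05% of all 25645 tested probe sets passed as lower and 0.643% as higher. In the same 2 probe sets all HF values lay below all NC values, as they did in 7.83% of all tested probe sets. All HF values lay above all NC values in 6.8% of all tested probe sets and in 0 of the 45. An unadjusted p under 0.05 was reached by 5 member probe sets (11.1%), against 20.8% of all. The share of members that passed was thus near that of the array as a whole. The mean log2 intensity was lower in HF islets for 31 of the 45, with a median change of -0.07, against 0.02 over all tested probe sets.

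**Figure D1:**
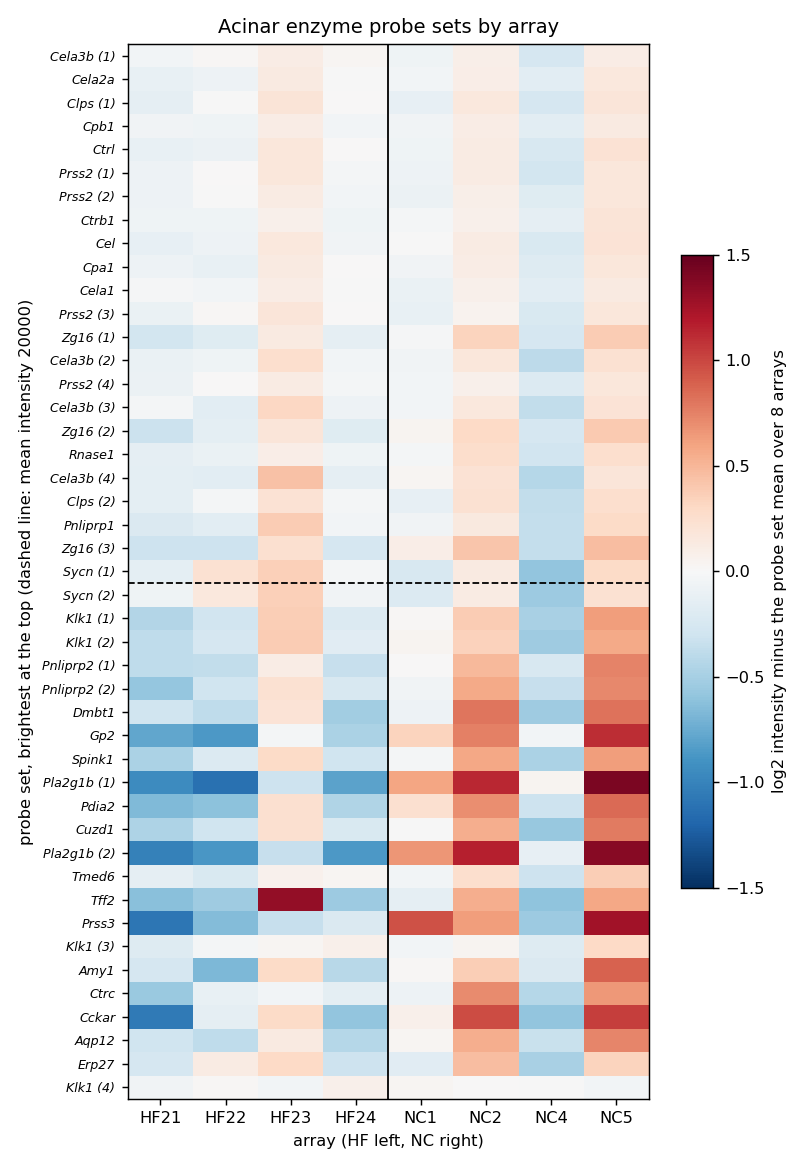
Log2 intensity of the 45 tested member probe sets (rows, brightest at the top, several probe sets of a gene numbered by brightness) on the 4 HF and 4 NC arrays (columns), as the difference from the mean of that probe set over the 8 arrays, with a dashed line at a mean intensity of 20000. The column of NC replicate 4 is low and those of NC replicates 2 and 5 are high in nearly every row, and among the HF columns that of replicate 23 is high.

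The members moved together from pool to pool. NC replicate 5 was the highest of the NC arrays in 40 of the 45 probe sets and the highest of all 8 arrays in 31. NC replicate 4 was the lowest NC array in 44 of the 45. HF replicate 23 was the highest HF array in 42 and lay above NC replicate 4 in 42. The exceptions to the last count were both Pla2g1b probe sets and the dimmest of Klk1, which read 63.8 in HF replicate 23 and 65.5 in NC replicate 4. The order of the pools was therefore nearly the same for proteases, lipases and granule proteins, and it ran across the diets.

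The member probe sets fell into 2 ranges of signal. With a mean intensity of 20000 or more, which was taken as near saturation, there were 23 probe sets of 14 genes, and 22 probe sets of 17 genes lay under that level. In the 22 under 20000, the mean log2 deviation from the mean of the 8 arrays was -0.50, -0.36, 0.17 and -0.32 in HF replicates 21 to 24, against 0.10, 0.55, -0.36 and 0.73 in NC replicates 1, 2, 4 and 5. This is a 1.59-fold range among HF pools and a 2.12-fold range among NC pools. In the 23 brighter probe sets the same arrays deviated by -0.13, -0.07, 0.19 and -0.05 in HF islets, against -0.05, 0.16, -0.27 and 0.22 in NC islets, a 1.25-fold range among HF pools and a 1.41-fold range among NC pools. HF replicate 23 thus carried more acinar signal than the other HF pools and NC replicate 4 less than the other NC pools in both ranges, and the groups overlapped.

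**Figure D2:**
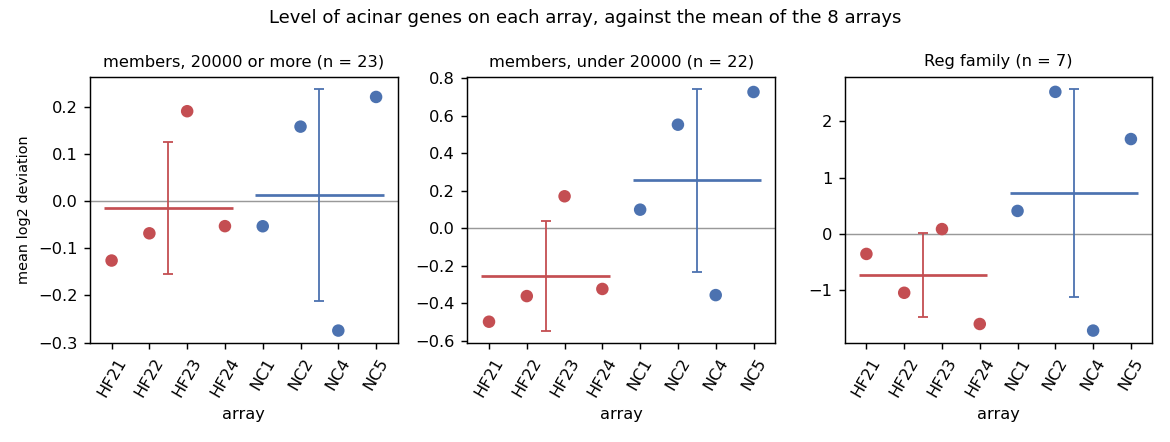
Mean log2 deviation from the mean of the 8 arrays for members at 20000 or more, members under 20000 and the Reg family, by array (HF left, NC right), with the group mean as a line and the SD as a bar (n = 4 pools each). NC replicate 4 lies lowest of the NC arrays in each panel, and the vertical scales differ, the Reg family spanning 18.8-fold among NC pools and the brighter members 1.41-fold.

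The summed intensity of the probe sets under 20000 ran from 80095 to 125898 in HF islets, against 79208 to 167239 in NC islets, and that of the brighter ones from 839848 to 1024980 in HF islets, against 761392 to 1045650 in NC islets. Each value is relative to the other RNA on the array. A lower acinar signal in a pool of islets can thus come from fewer acinar cells, less RNA per cell or a larger share of other RNA. These cannot be told apart here.

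The 2 ranges differed in their changes as well. Under 20000, the mean was lower in HF islets for 20 of 22 probe sets, with a median change of -0.44. These probe sets came from 17 genes and moved together from pool to pool, so they are not separate observations. At 20000 or more it was lower for 11 of 23, with a median of 0.00 and a span of -0.31 to 0.20. The brighter members still varied between pools. Their SD of log2 intensity had a median of 0.13 among HF arrays and 0.21 among NC arrays, against 0.049 among HF arrays and 0.044 among NC arrays for the 239 other tested probe sets at 20000 or more. For members under 20000 the corresponding medians were 0.32 among HF arrays and 0.50 among NC arrays. How far the brightest probe sets still follow the amount of RNA was not tested.

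**Figure D3:**
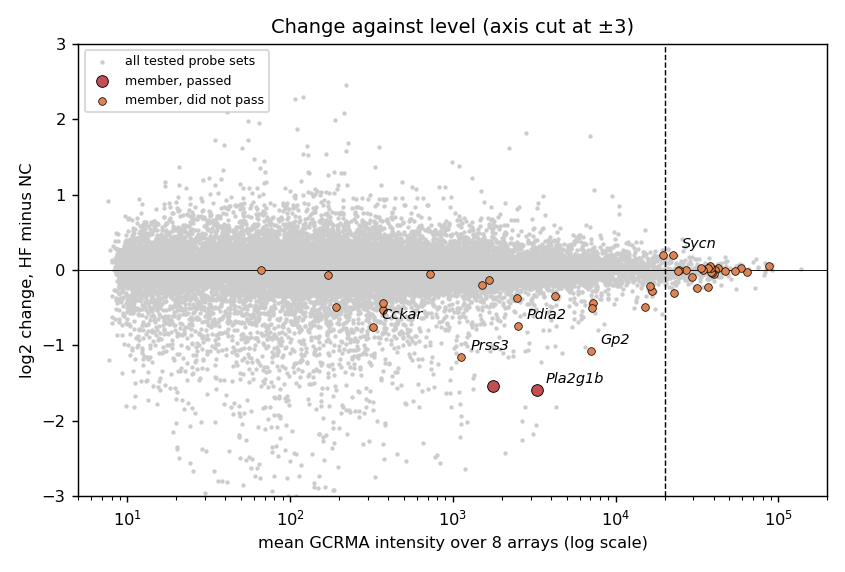
Log2 change, HF minus NC, against the mean intensity over the 8 arrays on a log axis, for all 25645 tested probe sets (grey, those beyond 3 in either direction not drawn) and the 45 member probe sets (large red points passed, orange did not). Members to the right of the dashed line at 20000 lie between -0.31 and 0.20, and 20 of the 22 to its left lie below 0.

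The lipolytic enzymes held the gene that passed. Pla2g1b encodes a proenzyme that trypsin activates and that releases a fatty acid from phospholipids. Its brighter probe set read 1396, 1232, 2156 and 1538 in HF islets (replicates 21, 22, 23 and 24), against 4023, 5881, 2764 and 7135 in NC islets (replicates 1, 2, 4 and 5). The highest HF value, that of replicate 23, lay below the lowest NC value, that of replicate 4. The means were 1580 ± 404 in HF islets and 4951 ± 1939 in NC islets (SD, n = 4 each), a log2 change of -1.59 (SE 0.30, limma adjusted p = 0.0222). The exact permutation test gave p = 0.0286 (two-sided), the smallest that 70 arrangements of 8 arrays allow. The dimmer probe set read 725, 800, 1153 and 802 in HF islets, against 2315, 3292, 1347 and 3771 in NC islets, and its groups did not overlap either. Its log2 change was -1.54 (SE 0.32, limma adjusted p = 0.0282). The array maker marks the brighter probe set as one whose probes may also bind other transcripts, and the dimmer one carries no such mark. Both other Pla2g1b probe sets lay under the filter.

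The Pla2g1b call depended on single pools, while its direction did not. Leaving out HF replicate 21, HF replicate 22, HF replicate 24, NC replicate 1 or NC replicate 2 raised the adjusted p of the brighter probe set to 0.0672, 0.0562, 0.0683, 0.0512 and 0.0645 in that order, and that of the dimmer one to 0.0836, 0.0678, 0.0862, 0.0686 and 0.0779. Without NC replicate 5 the dimmer one had an adjusted p of 0.0587. Over all 8 such fits the log2 change stayed between -1.84 and -1.38 for the brighter and between -1.84 and -1.34 for the dimmer probe set. Without the filter on low values, the adjusted p was 0.0552 and 0.0680.

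Pnliprp2, a lipase related to pancreatic lipase that also splits galactolipids, read 11160, 11226, 15713 and 11420 on its brighter probe set in HF islets, against 14549, 20269, 12254 and 24322 in NC islets. The groups overlapped, with HF replicate 23 among the NC values, and the log2 change of -0.49 had an adjusted p of 0.263. The dimmer probe set read 4626, 5663, 8144 and 5895 in HF islets, against 6690, 10269, 5463 and 11414 in NC islets (log2 change -0.44, adjusted p = 0.404), and its groups overlapped too.

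The other lipolytic members had mean intensities of 20000 or more. Pnliprp1, a lipase homologue with little activity of its own, read 20549, 21333, 30992 and 23050 in HF islets, against 23027, 26368, 18559 and 29139 in NC islets. Cel, the bile salt-activated lipase, read 35566, 36672, 43341 and 37417 in HF islets, against 38466, 42038, 32930 and 44657 in NC islets. The brighter probe set of Clps, the colipase that anchors pancreatic lipase at the lipid surface, read 53489, 58457, 67609 and 58947 in HF islets, against 54232, 65560, 49286 and 66587 in NC islets. In all 3 genes the HF values lay within the span of the NC values but for replicate 23 of Pnliprp1 and of Clps, which exceeded it, and the log2 changes lay between -0.04 and 0.02.

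None of the 5 trypsinogen probe sets passed. The brightest of Prss2, an anionic trypsinogen, read 40359, 42516, 47583 and 41455 in HF islets, against 40224, 46374, 35153 and 47618 in NC islets. Its log2 change was 0.03 (SE 0.11, adjusted p = 0.925), and the 4 Prss2 probe sets ran from 0.00 to 0.05. All 4 lay at 20000 or more, and the brightest carries the array maker's mark for probes that may also bind other transcripts. Prss3, another trypsinogen of the same cluster, read 453, 615, 758 and 827 in HF islets, against 1866, 1491, 661 and 2316 in NC islets. Only NC replicate 4 fell among the HF values. The log2 change was -1.15 (SE 0.38, adjusted p = 0.130), and Prss3 passed without NC replicate 4, the pool that crosses (log2 change -1.53, adjusted p = 0.0152). Leaving out any other single array gave an adjusted p of 0.174 to 0.263.

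The trypsinogen genes are near copies of one another, and the shared probe sets have to be read with that in mind. The one annotated jointly to Prss1, Prss3 and 2 predicted genes read 807, 1252, 1816 and 1809 in HF islets, against 3815, 3097, 1447 and 4552 in NC islets (log2 change -1.14, adjusted p = 0.148). The one annotated jointly to Try4 and Try5 read 59422, 65828, 70721 and 68023 in HF islets, against 77787, 82217, 66556 and 86721 in NC islets (log2 change -0.24, adjusted p = 0.192). In both, NC replicate 4 was the NC value that fell among the HF values. Spink1, the trypsin inhibitor that acinar cells secrete with their enzymes, read 2899, 3508, 4914 and 3271 in HF islets, against 3953, 6025, 2899 and 6244 in NC islets, and its groups overlapped (log2 change -0.35, adjusted p = 0.532).

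**Figure D4:**
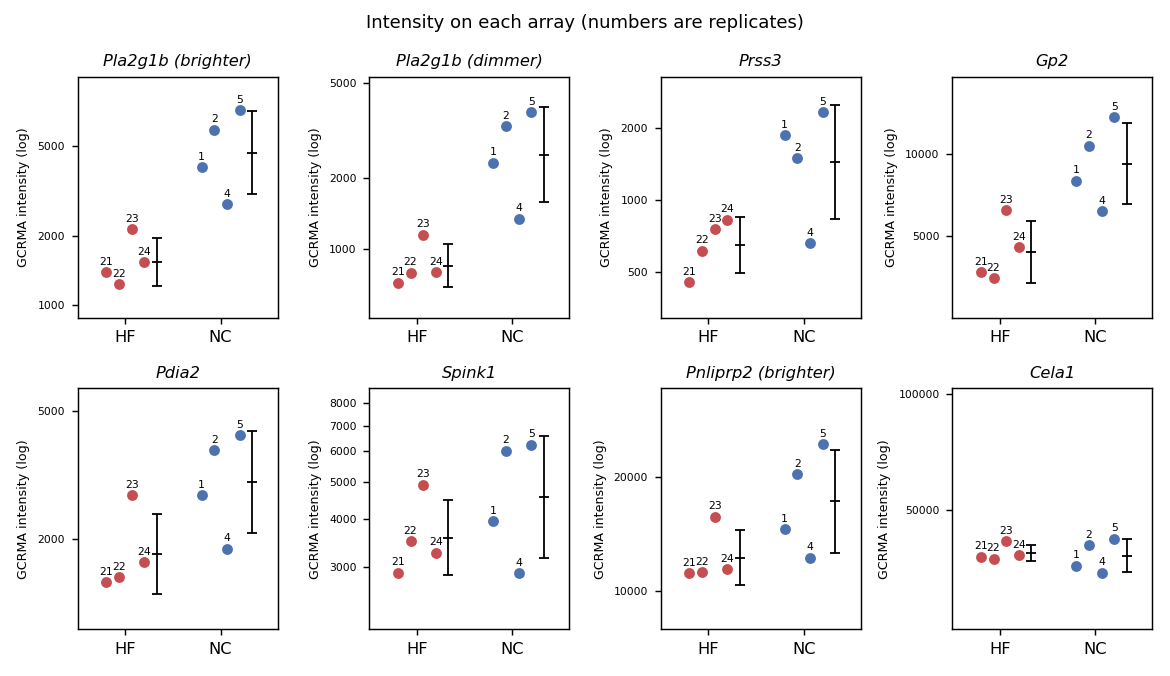
Intensity on each array, on log axes that differ between panels, for both tested Pla2g1b probe sets, Prss3, Gp2, Pdia2, Spink1, the brighter Pnliprp2 probe set and Cela1, with HF left of NC, replicate numbers at the points and the geometric mean with the SD of log2 values beside them (n = 4 pools each). Only in the Pla2g1b panels do all HF points lie below all NC points, and in most of the others HF replicate 23 and NC replicate 4 cross.

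The elastases and chymotrypsins gave 9 probe sets, 8 of them at 20000 or more, and none passed. Cela1, an elastase, read 37864, 37436, 41504 and 38165 in HF islets, against 35904, 40555, 34452 and 42181 in NC islets (log2 change 0.02, SE 0.08). Cela2a read 59253, 61002, 70042 and 63816 in HF islets, against 62308, 68629, 57564 and 71230 in NC islets. The brightest probe set of Cela3b read 85134, 88653, 95109 and 89393 in HF islets, against 84239, 93579, 73420 and 94828 in NC islets. This probe set carries the same mark for probes that may bind other transcripts. The HF values of these elastases were enclosed by the NC values, apart from replicate 23 of Cela3b, and this was so of Ctrb1, the main chymotrypsinogen, as well. Ctrb1 read 38110, 38250, 41944 and 38136 in HF islets, against 39136, 42182, 36329 and 45695 in NC islets. Ctrc, chymotrypsin C, which in humans degrades trypsinogen, was the dim member of the group, with 240 to 341 in HF islets and 263 to 578 in NC islets (log2 change -0.43, adjusted p = 0.413).

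The carboxypeptidases, which trim amino acids from the ends of peptides, did not separate the groups. Cpa1 read 36417, 35625, 42153 and 38583 in HF islets, against 37042, 41518, 33709 and 43280 in NC islets. Cpb1 read 52146, 51841, 58563 and 52568 in HF islets, against 52034, 58171, 48309 and 59370 in NC islets. Both had a log2 change of -0.02, with adjusted p = 0.936 for Cpa1 and 0.951 for Cpb1, and HF replicate 23 was the highest HF pool for each.

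The probe set annotated jointly to the pancreatic amylase genes, Amy2a5 among them, was the brightest on every array. It read 142713, 134085, 136407 and 139321 in HF islets, against 137066, 137603, 137066 and 137066 in NC islets, so that 3 of the NC arrays gave the same value. Amy1, the amylase of salivary gland and liver, read 295, 220, 426 and 263 in HF islets, against 355, 455, 301 and 646 in NC islets, and the groups overlapped (log2 change -0.53, adjusted p = 0.332). Rnase1, the pancreatic ribonuclease, read 26605, 27256, 31198 and 27856 in HF islets, against 28615, 34853, 23934 and 34631 in NC islets (log2 change -0.10).

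Of the granule proteins, Gp2 came closest to the threshold. Gp2 is the major glycoprotein of the zymogen granule membrane. It read 3682, 3506, 6227 and 4548 in HF islets, against 7969, 10699, 6173 and 13643 in NC islets. The only crossing was HF replicate 23 over NC replicate 4. The means were 4490 ± 1244 in HF islets and 9621 ± 3264 in NC islets (SD, n = 4 each), a log2 change of -1.07 (SE 0.27, limma adjusted p = 0.0610, exact permutation p = 0.0571). With 1 array left out at a time, Gp2 passed in 2 of 8 fits, those without a pool that crosses. The adjusted p was 0.0456 without HF replicate 23 and 0.0359 without NC replicate 4. In the other fits it ran from 0.103 to 0.149, above that of the full fit. With 1 probe set per gene and adjustment over 12308 genes, of which 4.81% were called lower, Gp2 passed with an adjusted p of 0.0438.

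The other granule and secreted proteins did not pass. Dmbt1, a mucin-like scavenger receptor protein, read 4648 to 7665 in HF islets and 4607 to 11735 in NC islets, with a log2 change of -0.50. Cuzd1, a protein of the zymogen granule membrane, had a log2 change of -0.38, and Zg16, a lectin-like granule protein, had changes of -0.31, -0.24 and -0.23 over its 3 probe sets. The brightest probe set of Klk1, tissue kallikrein, read 11988, 13321, 20955 and 14073 in HF islets, against 16460, 21162, 11565 and 24954 in NC islets, with a log2 change of -0.27. Sycn, syncollin of the granule membrane, was the member with the highest change, 0.20 on both of its probe sets (adjusted p = 0.595 and 0.639), and its groups overlapped. Tff2, a trefoil peptide, read 3320 in HF replicate 23 and 861 to 922 in the other HF pools, against 875 to 1989 in NC islets.

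The receptor, the water channel and the ER proteins of the acinar cell were dim. Cckar, the receptor through which cholecystokinin triggers enzyme release, read 137, 261, 349 and 189 in HF islets, against 301, 561, 190 and 587 in NC islets, with overlap (log2 change -0.75, SE 0.42, adjusted p = 0.371). Aqp12, an aquaporin found inside acinar cells, read 150, 141, 203 and 136 in HF islets, against 188, 268, 146 and 306 in NC islets (log2 change -0.49, adjusted p = 0.308). Pdia2, the pancreas-enriched protein disulphide isomerase, read 1476, 1524, 2746 and 1701 in HF islets, against 2751, 3784, 1873 and 4210 in NC islets. In Pdia2 the crossing was again that of HF replicate 23 and NC replicate 4, and the log2 change of -0.74 (SE 0.29) had an adjusted p of 0.198. Tmed6, a cargo receptor of the early secretory pathway, had a log2 change of -0.13 and Erp27, an ER protein of the same isomerase family, one of -0.07.

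Promoter sequence is shown for 2 members with lower HF readings on most arrays (Gp2, Prss3) and for 2 bright members whose groups coincided (Cela1, Prss2), because acinar genes share a known promoter layout in which PTF1 binds an E-box near a TTTCCC box. The stretches are the 250 bases before the annotated start in RefSeq (GRCm38.p6), 5′ to 3′ on the gene's own strand. They lie at chr7:119459273-119459522 (minus strand) for Gp2, chr6:41377614-41377863 (minus strand) for Prss3, chr15:100687921-100688170 (minus strand) for Cela1 and chr6:41521526-41521775 (plus strand) for Prss2. Capitals mark matches on either strand to the E-box CANCTG (also read as CAGNTG) and to TTTCCC (also read as GGGAAA).
Gp2: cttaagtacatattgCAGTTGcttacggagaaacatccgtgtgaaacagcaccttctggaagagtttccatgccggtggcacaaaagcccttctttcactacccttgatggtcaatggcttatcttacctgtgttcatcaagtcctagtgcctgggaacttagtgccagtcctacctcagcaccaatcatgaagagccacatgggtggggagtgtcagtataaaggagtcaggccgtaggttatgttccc
Prss3: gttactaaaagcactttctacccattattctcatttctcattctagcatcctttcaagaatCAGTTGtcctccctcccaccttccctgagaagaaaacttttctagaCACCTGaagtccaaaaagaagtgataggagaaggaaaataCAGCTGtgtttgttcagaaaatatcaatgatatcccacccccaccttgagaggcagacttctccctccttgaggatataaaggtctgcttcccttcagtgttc
Cela1: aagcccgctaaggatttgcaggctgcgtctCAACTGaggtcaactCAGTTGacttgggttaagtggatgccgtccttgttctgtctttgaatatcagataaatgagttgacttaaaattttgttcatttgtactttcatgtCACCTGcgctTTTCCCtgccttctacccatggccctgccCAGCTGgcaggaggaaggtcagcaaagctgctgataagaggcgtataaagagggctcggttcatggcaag
Prss2: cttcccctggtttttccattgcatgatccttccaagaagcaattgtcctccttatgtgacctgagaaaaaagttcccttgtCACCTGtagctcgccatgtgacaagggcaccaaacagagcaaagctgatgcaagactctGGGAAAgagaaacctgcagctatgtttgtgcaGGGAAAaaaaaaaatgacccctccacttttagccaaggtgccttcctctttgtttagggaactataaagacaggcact
Each of the 4 holds at least 1 CANCTG, and TTTCCC occurs in Cela1 and Prss2 and not in the windows of Gp2 and Prss3. The 4 were picked by their readings, and a relation between motif and change was not tested. Over 30 promoters of 29 members, 70.0% held CANCTG, against 44.8% of 32851 promoters of all genes, and 9 of the 30 held TTTCCC, against 21.9% of all. Both motifs starting within 30 bases of each other were found in 13.3% of member promoters and 2.6% of all. The matches are a description of these windows, and binding was not measured. The entry for Pla2g1b is not shown because the bases before its listed start did not look like an upstream region, which leaves that start in doubt. No member promoter was left out of the percentages for this reason.

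In a further fit, the mean deviation of the 23 bright member probe sets was added as a covariate for each array. The choice was made after the values were seen, and the covariate is built from members that vary with the others. It differed by -0.03 between HF and NC arrays, so that it could move the changes little and acted on the spread. The SE of the brighter Pla2g1b probe set was 0.09 in this fit and 0.30 without the covariate. The added calls are therefore no separate evidence of a difference between the diets. In this fit 4 of the 22 member probe sets under 20000, from 3 genes, passed as lower, where 2.96% of all tested probe sets did. Both Pla2g1b probe sets had log2 changes of -1.52 and -1.47 (adjusted p = 0.00135 each), Gp2 one of -1.01 (adjusted p = 0.00290) and Pdia2 one of -0.67 (adjusted p = 0.00289). Prss3 had a log2 change of -1.08 (adjusted p = 0.0579). Pnliprp2, Aqp12, Cuzd1 and Spink1 had adjusted p-values between 0.0131 and 0.0349 with folds under 1.5. The fit takes the relation as linear on the log2 scale, which was not tested.

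Among other products of acinar cells, some Reg genes varied far more between pools than the members did. The Reg genes encode secreted lectin-like proteins that rise in acinar tissue under stress. Reg2 read 1539, 661, 3390 and 324 in HF islets, against 2661, 16040, 433 and 9385 in NC islets. The brighter probe set of Reg3b read 986, 488, 833 and 190 in HF islets, against 1862, 11613, 178 and 5030 in NC islets. NC replicates 2 and 5 stood far above the other pools in both genes, and NC replicate 4 lay at or below most HF pools. Among NC arrays the SD of log2 intensity was 1.34 to 3.18 for Reg2, Reg3a, Reg3b and Reg3d, against 0.42 for Reg1, 0.55 for Serpini2, 0.33 for Gatm and 0.19 to 0.21 for Nupr1, and a median of 0.50 for members under 20000. Over 7 Reg probe sets the pools of a diet ranged 3.21-fold in HF islets and 18.8-fold in NC islets. None of 10 probe sets of this list passed, and their median log2 change was -0.84, with Gatm, an enzyme of creatine synthesis, at 0.46 and Reg3a at -2.92 (adjusted p = 0.308 and 0.295).

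Of the acinar transcription factors, 1 of 11 probe sets passed, as lower, where 3.05% of all tested probe sets did. The brighter probe set of Gata6, a factor also made in mesenchyme, read 198, 149, 241 and 161 in HF islets, against 331, 301, 262 and 310 in NC islets, with no overlap (log2 change -0.71, adjusted p = 0.0354). Ptf1a, the factor that drives acinar enzyme genes, read 25, 31.6, 33 and 26.4 in HF islets, against 33.6, 53.7, 33.3 and 66.8 in NC islets, without overlap, and did not pass (log2 change -0.64, adjusted p = 0.173). Bhlha15, the acinar factor Mist1 that shapes the secretory cell, read 1605, 1473, 1331 and 1884 in HF islets, against 1232, 1253, 837 and 1068 in NC islets, all HF values above all NC values (log2 change 0.53, adjusted p = 0.0920). Its readings ran in the other direction from those of Pla2g1b and Gp2, and the 4 probe sets of Xbp1, a factor of the secretory stress response, had log2 changes of 0.05 to 0.10.

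Of the stimulus and secretion machinery, 4 of 29 probe sets passed, all of Rab3d or Rab27b, genes that other secretory cells use too. Of all tested probe sets, 3.05% passed as lower and 0.643% as higher. Rab3d, a small GTPase of secretory granules, was higher in HF islets on 3 probe sets. The brightest of them read 3219, 2501, 2840 and 2999 in HF islets, against 2172, 1767, 1832 and 1573 in NC islets, without overlap (log2 change 0.66, adjusted p = 0.0152), and the other 2 had log2 changes of 0.67 and 0.59. Rab27b, another granule GTPase, passed as lower on 1 of its 3 probe sets, with 8.62 to 9.27 in HF islets, at the level of the filter of 8.8, against 16.4 to 20.9 in NC islets, and no fold is given for it. Its other probe sets had log2 changes of -0.28 and 0.01 (adjusted p = 0.241 and 0.951). None of 9 probe sets for trypsinogen activation and protease defence passed. Serpinb1a, an inhibitor of serine proteases, had a log2 change of -0.89 (adjusted p = 0.131), and the 4 probe sets of Ctsb, the protease cathepsin B that can activate trypsinogen, ran from -0.58 to 0.08.

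**Figure D5:**
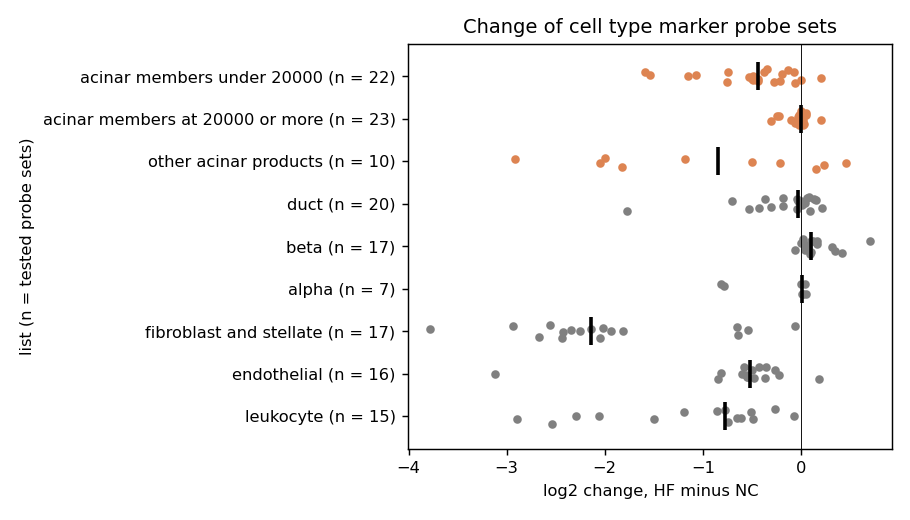
Log2 change, HF minus NC, of each tested probe set (points) in the acinar lists (orange) and in the marker lists of other cells (grey), with the median of each list as a black bar. The medians are -0.44 for members under 20000, 0.00 for members at 20000 or more and -2.14 for fibroblast and stellate markers.

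Markers of some other cells of the pancreas differed between the diets, and their part in the member values was not tested. Of the fibroblast and stellate markers, 14 of 17 probe sets passed as lower in HF islets, where 3.05% of all tested probe sets did. Their list had summed intensities of 4022 to 6465 in HF islets, against 17544 to 24404 in NC islets. Of the leukocyte markers, 9 of 15 passed as lower, with sums of 4140 to 6034 in HF islets, against 9317 to 12264 in NC islets. An Ighm probe set among the 9 read 7.13 to 8.12 in HF islets. These values lay under the filter level of 8.8, so it was tested through its NC values. Cdh11, among the fibroblast calls, read 7.43 to 11.4 in HF islets, near that level. Of the endothelial markers, 3 of 16 passed as lower, with sums of 11891 to 14476 in HF islets, against 16648 to 20156 in NC islets. These sums did not overlap between the diets, unlike those of the acinar members. NC replicate 4, the pool with the least acinar signal of the NC group, also had the lowest NC sums of all 3 lists. They were 17544 for fibroblast, 9317 for leukocyte and 16648 for endothelial markers. NC replicate 5, the pool with the most acinar signal, had nearly the same leukocyte sum, 9389. It also had the highest NC sums of fibroblast (24404) and endothelial markers (20156). The fibroblast sum of NC replicate 2, 17980, was near that of NC replicate 4. None of 20 duct, 17 beta cell and 7 alpha cell probe sets passed, and no marker was listed at 0. The beta cell sums did not overlap either and were higher in HF islets, with 523721 to 549168 in HF islets, against 492217 to 510586 in NC islets. The beta cell genes Ero1b and Pcsk1 had probe sets with adjusted p = 0.00523 and 0.0312 and folds under 1.5. Krt19, a keratin of duct cells, was under the filter level of 8.8 on all HF arrays, with 5.15 to 8.53 in HF islets, against 10.7 to 40.4 in NC islets, so it was tested through its NC values and no fold is given. The other keratins of the duct list, Krt7, Krt8 and Krt18, had log2 changes of -0.03 to 0.14. The brightest probe set of Tspan8, another duct marker, had a log2 change of -0.53 (limma adjusted p = 0.0206) and a fold under 1.5.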

How the data were processed

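Islet RNA of 4 HF and 4 NC pools was measured on Affymetrix MOE 430v2 arrays. The authors computed expression values with GCRMA in ArrayAssist Lite 3.4, and the deposited values are intensities on a linear scale, 45101 probe sets on 8 arrays, from 1.33 to 142713. GCRMA normalizes the distribution across arrays, so a value is relative to the other RNA on the array. The values were taken to log2 here without further scaling. Gene names came from the platform annotation, which pairs 34958 probe sets with 1 gene, 932 with several and 9211 with none. Present flags were not used here. Probe sets were tested where the third-highest of the 8 intensities was at least 8.8, which kept 25645.

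HF and NC were compared with limma 3.58.1 (lmFit and eBayes) in R 4.3.3, with Benjamini-Hochberg adjustment over all tested probe sets, and the script was tested on simulated data. Calls needed an adjusted p under 0.05 together with a 1.5-fold difference. Exact permutation tests were two-sided. Replicate numbers are not shared between the diets, and the p-values measure the spread between pools of 2 mice. Values by array are given for probe sets that passed, for the 10 with the smallest p, and for the brightest probe set of 20 chosen genes where there is one. Up to 4 genes of a context list by smallest p could be named, and Xbp1, Ctsb, Tff2 and others given in brief were named after their values were seen. The members and lists were chosen with earlier results of these data known.

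Other settings tried were a filter of 32 or none, 3 further scalings, a trend with a robust prior, array weights, the methods' t-test with and without adjustment (named there for other measurements, while the arrays were tested with SAM, which was not run here), other thresholds, probe sets shared between genes, 1 probe set per gene, folds of linear means and leaving out each array. The covariate fit was chosen after seeing the data.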

Additional observations from a re-analysis of the deposited data

Results flagged for a closer look

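In 8 of 122 groups of 4 pools examined, 1 pool lay far from the other 3 relative to the range of the group. Chance gives about 1 in 20 groups. In 7 of them the pool was HF replicate 23, and the member probe sets move together, so these are not separate observations. Tff2 read 3320 in HF replicate 23 and 861 to 922 in the other HF pools. Pnliprp2 read 15713 there on its brighter probe set, against 11160 to 11420 in the others, and Zg16 read 26198 on its dimmest, against 17833 to 18667. Cpb1 read 58563, against 51841 to 52568, and Ctrb1 read 41944, against 38110 to 38250. The dimmest probe set of Cela3b read 36025, against 23749 to 24240, and another read 43361, against 33940 to 35300. The eighth was NC replicate 2 in the probe set shared by the pancreatic amylase genes, which read 137603 there and 137066 in each of the other 3 NC pools. It was flagged because those 3 values are equal. The value itself lay within the span of the HF pools, 134085 to 142713.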

How the results depend on the processing

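The 2 member probe sets called lower (1 gene) became 0 (0 genes) without the filter and with the methods' t-test (named there for other measurements than the arrays) after Benjamini-Hochberg adjustment, 4 (3 genes) with the methods' t-test at its unadjusted threshold and with each array set to the same mean of beta cell markers, and 4 with the covariate. With the stricter filter, an intensity trend with a robust prior, array weights, an adjusted p under 0.10, or 1 probe set per gene, 2 genes were called. Leaving out 1 array gave 0 to 4 probe sets and 0 to 3 genes, with 0 without HF replicates 21, 22 or 24 or NC replicates 1 or 2, and 4 probe sets without NC replicate 4. No member was called higher in any of these fits. The median change was -0.44 for members under 20000, against -0.07 for all, and for all it was -0.24 with the beta cell scaling, -0.16 with 1 probe set per gene and -0.21 to -0.01 when 1 array was left out. The 5 calls in the context lists became 2 with the adjusted t-test and 2 to 6 when 1 array was left out, with 3 without HF replicate 21 or NC replicate 5 and 2 without HF replicate 24. The beta cell scaling lowered every difference by 0.17. Of the alternative values of single named probe sets, 396 kept their direction and side of the threshold, 12 passed newly, 15 no longer passed and 26 changed sign. These 26 belong to bright probe sets of 9 genes that did not pass in any fit. With the beta cell scaling the log2 change was -0.11 for Cela3b and -0.14 for Prss2, Cela1 and Clps. Leaving out 1 array gave -0.020 to 0.10 for Cela3b, -0.13 to 0.020 for Cel, -0.086 to 0.017 for Cela2a, -0.057 to 0.089 for Prss2, -0.028 to 0.070 for Cela1, -0.089 to 0.032 for Cpa1, -0.058 to 0.086 for Clps, -0.071 to 0.028 for Cpb1 and -0.15 to 0.077 for Pnliprp1. No paired analysis was possible because the groups share no replicate numbers. How far signals of 20000 or more follow the amount of RNA was not tested, and the 4 pools per diet limit the precision.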
